A study of Ovis aries with 5 samples.

Results

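Dendritic cells (DC) sorted from sheep skin lymph as CD1b+CD26+ were compared with total lymph DC on 2-colour Agilent arrays of 60-base probes. The comparison used 3 of the 5 arrays of the series: 1 array of CD26+ cells from each of 2 sheep, numbered 30066 and 10081, and 1 array that carried the reference in both dyes (the self-hybridisation). On every array the sample was in Cy3 and the common reference in Cy5, with no dye swap, and all arrays lay on 1 slide. The sample labels give the reference as enriched lymph DC of other animals, whereas the text on labelling gives cultured LP-1cl1 cells as its source; it is called total DC here.

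Lymph DC take up antigen in the skin, mature, and travel through the draining vessels to the lymph node, where they present peptides and lipids to T cells and release cytokines that steer the response. CD1b displays lipid antigens on the cell surface. CD26 is a membrane peptidase that trims chemokines and other peptides, and it is used in sheep to divide lymph DC into subsets. Conventional DC are divided into type 1 (cDC1), known for cross-presentation, and type 2 (cDC2), known for priming helper T cells.

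Of 15008 probes, 13193 could be tested and 715 genes with a symbol were among them. The median spot signal before correction was 204 to 292 units in Cy3 and 362 to 412 in Cy5, over a local background of 36.5 to 39 and 51 to 52.5 units. The Cy3 signal was well above background for 81.3% of the probes of the self-hybridisation, 82.5% in sheep 30066 and 83.2% in sheep 10081. Across tested probes, the log2 ratio of Cy3 over Cy5 spread with an SD of 0.29 where both dyes held the reference, against 1.18 in sheep 30066 and 1.42 in sheep 10081.

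The probes below are those of genes on which the comparison turns. BMP6 and BMP7, and CLDN3 and CLDN4, are related genes that lay on the same side, so the capitals mark the longest run of bases that the probes of each pair share, which is 6 bases in both pairs. IL12B and PFKL are shown as probes with large and closely repeated values on the higher side, and CXCL1 and CLEC4E as examples of a chemokine and a receptor on the lower side. Each is given 5′ to 3′ as the array files list it.
BMP6: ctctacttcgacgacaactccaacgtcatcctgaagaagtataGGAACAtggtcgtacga
BMP7: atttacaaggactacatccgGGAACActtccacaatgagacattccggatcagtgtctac
CLDN3: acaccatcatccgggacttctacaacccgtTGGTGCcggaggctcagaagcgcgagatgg
CLDN4: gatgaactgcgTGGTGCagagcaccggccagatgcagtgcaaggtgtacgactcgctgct
IL12B: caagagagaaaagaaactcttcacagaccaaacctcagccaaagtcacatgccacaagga
PFKL: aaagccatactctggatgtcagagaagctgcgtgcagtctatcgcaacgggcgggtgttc
CXCL1: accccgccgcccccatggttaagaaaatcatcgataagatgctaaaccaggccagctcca
CLEC4E: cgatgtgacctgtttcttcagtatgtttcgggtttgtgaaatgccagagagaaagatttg

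CD26+ cells had far higher signals than total DC for the growth factors BMP7 and BMP6, the tight junction proteins CLDN4 and CLDN3, the cytokines IL12B and TNF, and the glycolytic enzymes PFKL and ALDOA. They had far lower signals for the chemokines CXCL8 and CXCL1, the cytokine IL1B, the lectin CLEC4E and the IgE receptor chain FCER1A. Probes of MHC class I heavy chains and 6 of 7 class II chains lay above total DC in both sheep, and most ribosomal protein genes below it. A value is the log2 ratio of Cy3 over Cy5 on a CD26+ array minus the same on the self-hybridisation, and "difference" below means this quantity. The fitted difference is given with its standard error (SE, n = 2 sheep) from limma.

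No probe passed the test. limma called 0 of 13193 probes higher and 0 lower at a Benjamini-Hochberg adjusted p under 0.05 (0.0% each), and the smallest adjusted p was 0.305. At an unadjusted p under 0.05 there were 1493 probes, 803 of them higher (6.09%) and 690 lower (5.23%). The reference group is 1 array, so the results below are sizes seen in both sheep. By size, 1289 of the 13015 probes with a value on all 3 arrays lay at least 2-fold above total DC in both sheep (9.9%), 1146 lay at least 2-fold below in both (8.81%), and 117 lay at least 2-fold away in opposite directions. With median centring in place of loess the counts were 913 higher and 1446 lower, so that 38.7% instead of 52.9% of them were higher, and the median difference of all probes went from -0.02 to -0.26. Set against 0 with no subtraction of the self-hybridisation, which leaves out the spread of the control, limma called 650 probes higher and 531 lower.

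Among the 708 genes with a symbol and all 3 values, 46 lay at least 2-fold above total DC in both sheep (6.5%) and 60 at least 2-fold below (8.47%). Of these, 63 had more than 1 tested probe, and in 62 all probes of the gene lay on the same side of 0. The exception was PRNP, the prion protein, at -1.38 with other probes between -1.33 and 1.95; it was singled out after its values were seen. A gene could be tested without being well above background on all 3 arrays. Requiring that kept 41 of the 46 higher genes and 54 of the 60 lower ones. Counts of list genes at least 2-fold away in both sheep, given below, are to be read beside the 6.5% and 8.47% of all genes. Counts of genes or probes merely above or below total DC in both sheep have no such share given beside them. Both CD26+ arrays share the self-hybridisation as control, which therefore enters both values of every gene. Sheep 30066 and the self-hybridisation occupied the same row of the slide, so a sheep's value and its slide row cannot be told apart. The subset and differences between these 2 sheep and the animals of the reference cannot be told apart either.

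**Figure D1:**
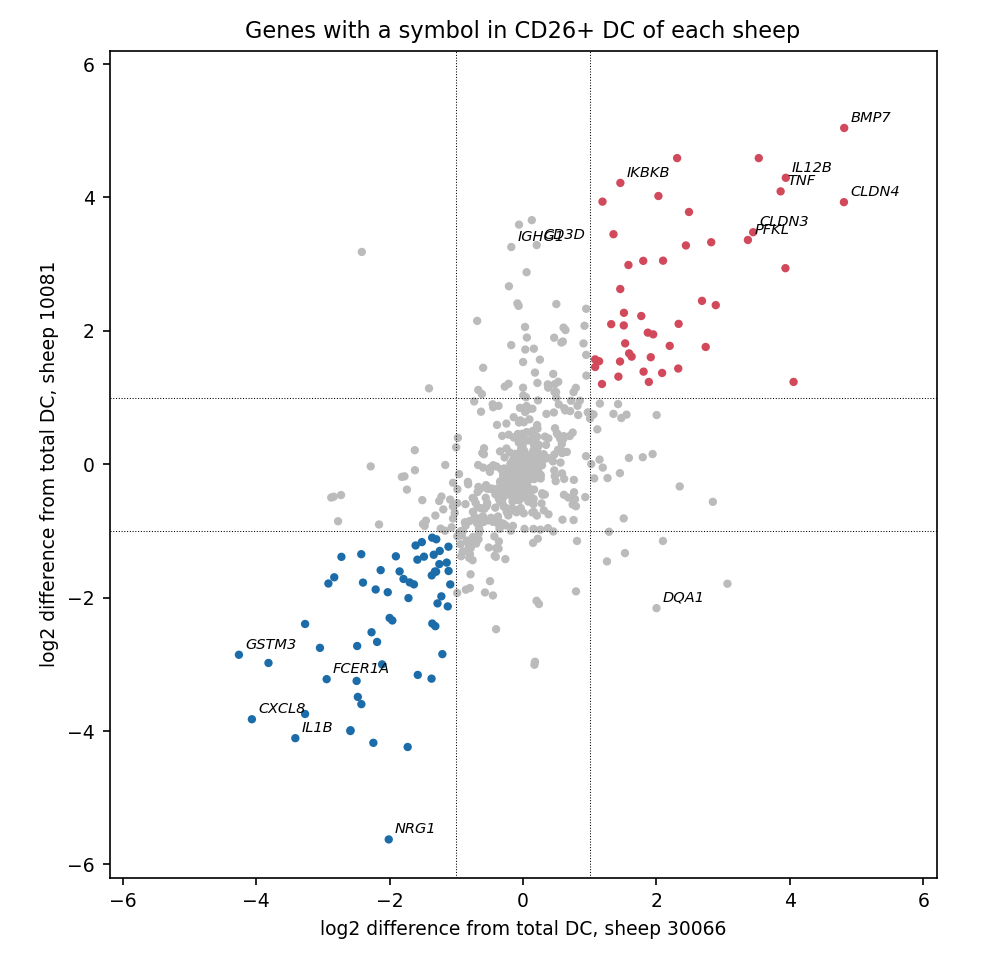
Log2 difference from total DC of each of 708 genes with a symbol in sheep 30066 (x axis) and sheep 10081 (y axis); dotted lines mark 2-fold, red points the 46 genes at least 2-fold higher in both sheep and blue points the 60 at least 2-fold lower in both. BMP7 and CLDN4 lie far up in both sheep and NRG1 farthest down in sheep 10081, while DQA1 lies on opposite sides in the sheep.

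CD1B, the lipid-presenting molecule of the sort, was well above background on all 3 arrays, with differences of -0.25 in sheep 30066 and 0.61 in sheep 10081. The 7 measured MHC class II genes were well above background on all 3 arrays as well. CD26 itself was not analysed here, so the second marker of the sort has no check on these arrays.

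MHC class II molecules present peptides to helper T cells, and 6 of the 7 measured chains lay above total DC in both sheep, 2 of them at least 2-fold in both. DYA, a chain of the ruminant class II molecule DY, had Cy3 signals of 775 units in total DC, 1612 in sheep 30066 and 9510 in sheep 10081. Both sheep lay above total DC, and their values were far apart, with differences of 1.36 and 3.45 (fitted difference 2.40, SE 1.23). DRB3, a beta chain of the class II molecule DR, had 8426 units in total DC, 18208 in sheep 30066 and 38251 in sheep 10081, which after normalization gave differences of 1.51 and 2.08 (SE 0.58). The remaining chains with a value above 0 in both sheep were DQB1 at 1.47 and 0.69, DRB1 at 1.35 and 0.76 (other probes 1.76 to 2.21), DQA2 at 1.79 and 0.11 and DRA at 1.02 and 0.76. The chain left over is DQA1, singled out after its values were seen, which stood at 2.0 in sheep 30066 and -2.16 in sheep 10081. The median of the 7 chains was 1.06, against -0.02 over all probes and -0.10 over the genes with a symbol. It was 1.47 in sheep 30066 and 0.76 in sheep 10081, and 0.65 with median centring.

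MHC class I heavy chains, which present peptides to cytotoxic T cells, were read by 15 probes that are described as such. All 15 lay above total DC in both sheep, between 0.85 and 2.02, with a median of 1.38 (0.87 in sheep 30066 and 1.93 in sheep 10081). At least 2-fold higher in both sheep were 4 of the 15 (over all probes 9.9%). Transcripts of the several class I loci are closely alike, so these probes may read the same transcripts and are not 15 separate genes. B2M, the light chain of class I, stood at 0.14 in sheep 30066 and -0.72 in sheep 10081. FCGRT, the class I-like receptor that recycles IgG and albumin, had 1874 units of Cy3 in total DC, 7172 in sheep 30066 and 8761 in sheep 10081. Its differences were 1.95 in each sheep (SE 0.65). PSME2, a part of the proteasome activator that favours class I peptides, lay on the other side, with 5666 units in total DC against 1288 in sheep 30066 and 2138 in sheep 10081 (fitted difference -1.86, SE 0.51).

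Among 5 lysosomal proteases of antigen processing, CTSB was the 1 gene at least 2-fold higher in both sheep, at 1.14 and 1.55. LGMN, which cuts after asparagine, stood at -0.55 and -0.61, and CTSS, which trims the class II invariant chain, at 0.00 and -0.12. CTSF, a further cysteine protease of lysosomes, is in no list and was among the 15 genes farthest above total DC. It had 50.4 units of Cy3 in total DC, where it was not well above background, 1346 in sheep 30066 and 593 in sheep 10081. Both sheep were well above background, and the fitted difference was 3.44 (SE 1.10; 2.69 with median centring), against a control value near background.

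Costimulatory and adhesion genes gave mixed values. CD80, a ligand of CD28, stood at 0.92 in sheep 30066 and 2.08 in sheep 10081, and CD40, the receptor for T cell help, at 0.50 and 1.0. CD86, the other CD28 ligand, lay below total DC at -0.75 and -0.51. ICAM1, which binds T cell integrins, stood at 0.95 and 1.64. Of the 7 measured genes of this list, 0 were at least 2-fold away in both sheep.

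**Figure D2:**
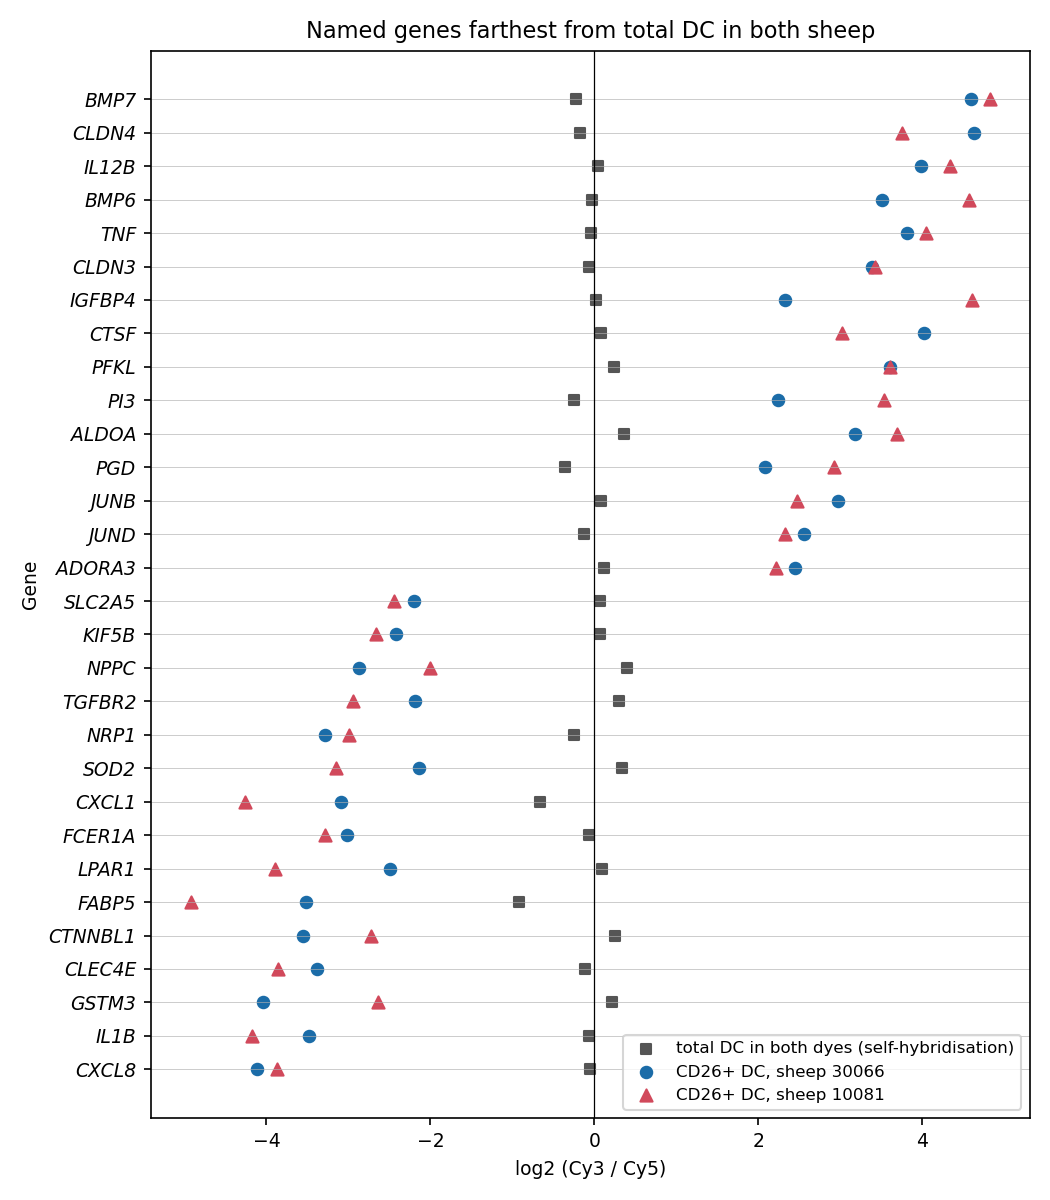
Log2 of Cy3 over Cy5 on each of the 3 arrays for the 15 genes with a symbol that lay farthest above total DC in both sheep and the 15 farthest below; squares are the self-hybridisation, circles sheep 30066 and triangles sheep 10081. The self-hybridisation stayed between -0.92 (FABP5) and 0.39 (NPPC), and the CD26+ values of every plotted gene lie outside that of total DC.

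Cytokines that steer T cells were split. IL12B, the subunit shared by interleukins 12 and 23 that drive interferon-gamma and type 17 responses, had Cy3 signals of 348 units in total DC, 5819 in sheep 30066 and 7968 in sheep 10081. The Cy5 signal of the reference stayed between 722 and 885 units on the 3 arrays. CD26+ cells of both sheep were thus far above total DC, by 3.94 and 4.30 (fitted difference 4.12, SE 0.77). IL12A, the partner that makes interleukin 12, lay below total DC at -1.37 and -1.67 and was well above background in 1 of the 2 sheep.

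TNF, an inflammatory cytokine made by maturing DC, had 82.5 units of Cy3 in total DC, 4144 in sheep 30066 and 2980 in sheep 10081, and the fitted difference was 3.98 (SE 0.49). Its other probe gave 2.70, and median centring 3.12 at the first probe. For TNF the Cy5 signal also differed between arrays, at 135 units on the self-hybridisation, 601 in sheep 30066 and 369 in sheep 10081, although the reference is the same; the part of this in the ratio was not tested.

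The other 4 cytokines at least 2-fold away in both sheep lay below total DC. IL6, which supports type 17 and B cell responses, had 662 units in total DC, 287 in sheep 30066 and 84.5 in sheep 10081 (-2.29, SE 0.87; -2.94 against 0). IL10, which dampens DC and T cells, had 196 units in total DC, 61.7 in sheep 30066 and 50.6 in sheep 10081 and was well above background in 1 of the 2 sheep (-1.87, SE 0.59; -2.49 with a normexp offset of 20). FLT3LG, the growth factor that maintains DC, stood at -2.72 and -1.39. Of 16 measured genes on the list, 2 were higher and 4 lower by this rule (over all genes with a symbol 6.5% and 8.47%). The median of the list was -0.37, with -0.32 in sheep 30066 and -0.65 in sheep 10081.

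In the interleukin 1 family the members differed from each other. IL1B, the secreted inflammatory form, had 1912 units of Cy3 in total DC, 182 in sheep 30066 and 128 in sheep 10081, while the Cy5 signal stayed between 4168 and 4971 units. Both sheep lay far below total DC (fitted difference -3.76, SE 0.81). IL1A stood at 0.02 and 0.09, IL18 at 0.47 and 0.15, and the antagonist IL1RN at 0.46 and 0.78.

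Chemokines that attract neutrophils were the lowest of their list. CXCL8 had 11438 units of Cy3 in total DC, 493 in sheep 30066 and 894 in sheep 10081, and a fitted difference of -3.94 (SE 0.50). Its Cy5 signal was 30796 units on the self-hybridisation, 18999 in sheep 30066 and 31534 in sheep 10081. Its other probe stood at -3.81. CXCL1 had 41140 units in total DC, 8961 in sheep 30066 and 4624 in sheep 10081, at -3.01 (SE 1.12) in the fit and -3.69 from the scanner's own processed signals. CXCL10, which attracts activated T and NK cells, lay on the other side, with 165 units in total DC, 732 in sheep 30066 and 1454 in sheep 10081 (2.58, SE 1.05). The remaining 7 measured chemokines and receptors were not 2-fold away in both sheep, among them XCL1 at -0.37 and -0.90.

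**Figure D3:**
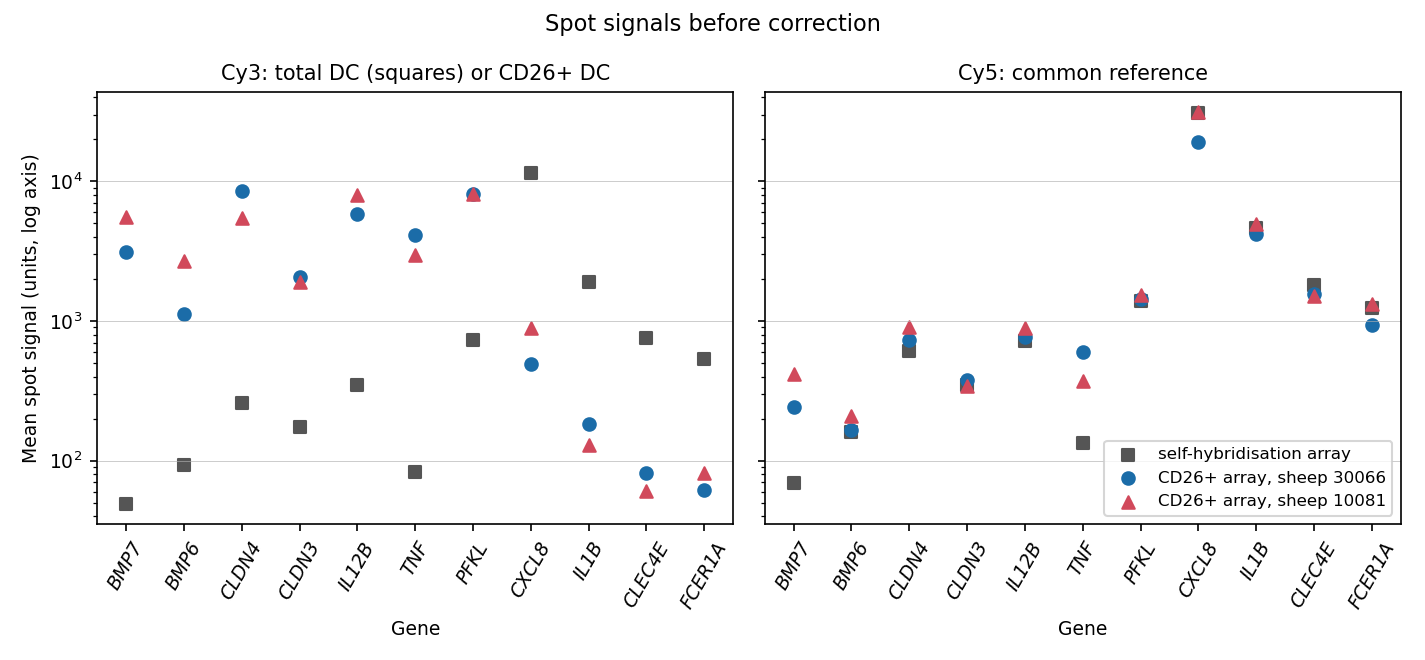
Mean spot signal before correction, on a log axis, in Cy3 (left) and Cy5 (right) for 11 genes on the 3 arrays; values compare between arrays within a gene, not between genes. The Cy3 signals of CD26+ cells lie above total DC for the first 7 genes and below it for the last 4. The Cy5 signal of the reference differs most between arrays for BMP7 and TNF, and for CXCL8 it is lower in sheep 30066.

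Receptors for microbial patterns lay mostly at or below total DC. CLEC4E (Mincle), a lectin for mycobacterial glycolipid, had 753 units of Cy3 in total DC, 82.2 in sheep 30066 and 61.1 in sheep 10081, and was well above background in 1 of the 2 sheep. Its fitted difference was -3.51 (SE 0.72), its other probe gave -3.40, fitting the background model to all spots -2.86 and a normexp offset of 20 gave -4.16. CD14, the co-receptor for lipopolysaccharide, had 1697 units in total DC, 498 in sheep 30066 and 541 in sheep 10081. TLR3, which senses double-stranded RNA, stood at -1.49 and -1.38, TLR8, which senses single-stranded RNA, at -0.57 and -1.92, and TLR5, the flagellin receptor, at 2.0 and 0.74. Of 10 measured Toll-like receptors and adaptors, CD14 and TLR3 were at least 2-fold lower and 0 higher in both sheep. The list's median was 0.03 in sheep 30066 and -0.62 in sheep 10081. CLEC7A, the beta-glucan receptor, stood at 0.70 and 0.42, and NOD2, a cytosolic sensor of cell wall fragments, at -0.86 and -0.60.

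FCER1A, the alpha chain of the high-affinity IgE receptor, had 537 units of Cy3 in total DC, 61.8 in sheep 30066 and 81.5 in sheep 10081, with a fitted difference of -3.08 (SE 0.44). It was well above background in 1 of the 2 sheep, and the value was -2.38 when all spots entered the background model and -3.69 with a normexp offset of 20. FCER1G, the signalling chain of Fc receptors, stood at -0.61 and 0.17. C3 and C5AR1 of the complement system were low in sheep 30066 alone, at -2.84 and -1.82, against -0.49 and -0.19 in sheep 10081.

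Signalling genes lay on both sides. IKBKB, the kinase that releases NF-kB, stood at 1.46 in sheep 30066 and 4.22 in sheep 10081 (fitted 2.84, or 2.24 with median centring), and the inhibitor NFKBIA at -0.79 and -1.65. STAT5A, a transducer of cytokine receptors, lay above total DC at 1.51 and 2.27, and the interferon receptor chains IFNAR1 and IFNAR2 at -0.76 and -1.44, and at 0.20 and -2.05. Of 7 measured interferon-stimulated genes and interferon regulatory factors, IRF1 (1.08 and 1.57) and MX2 (1.43 and 1.31) were at least 2-fold higher in both sheep, and ISG15 stood at -0.40 and -0.03.

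Ligands of the BMP and TGF-beta family did not move together. BMP7, BMP6 and TGFB1 lay above total DC in both sheep. INHBA (-1.26 and -0.55), BMP4 (-0.42 and -0.45), MSTN (-0.02 and -0.70) and TGFB3 (-0.03 and -0.24) lay below it in both. BMP2 stood at 0.21 and -0.77. BMP7, a secreted growth factor of the bone morphogenetic protein branch, had 48.7 units of Cy3 in total DC, where it was not well above background, 3124 in sheep 30066 and 5544 in sheep 10081. The differences were 4.81 and 5.04 (fitted difference 4.93, SE 0.56), against a control value near background, and the Cy5 signal at this probe was 69.6 units on the self-hybridisation and 241 and 415 on the CD26+ arrays of sheep 30066 and 10081; the part of this in the ratio was not tested. The other BMP7 probe gave 4.93, and median centring 3.74 at the first. BMP6, of the same branch, had 92.4 units in total DC, 1125 in sheep 30066 and 2686 in sheep 10081, with Cy5 between 160 and 207 units (4.06, SE 1.01; 3.43 with median centring).

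TGFB1, the ligand of the other branch, stood at 2.08 and 1.37. It had 61.2 units of Cy3 in total DC, over a median local background of 39, 330 in sheep 30066 and 236 in sheep 10081. TGFBR2, its signalling receptor, had 1414 units of Cy3 in total DC, 278 in sheep 30066 and 186 in sheep 10081, which gave -2.87 (SE 0.64), but its other probe stood at -0.12. FST, which binds and blocks activins and some BMPs, was not well above background in CD26+ cells of either sheep, with 58.1 and 55.1 units against 147 in total DC (-1.60, SE 0.53). SMAD2, a transducer of the TGF-beta branch, stood at -0.86 and -1.88. Of 27 measured genes of the pathway, 3 were at least 2-fold higher and 2 lower in both sheep (over all genes with a symbol 6.5% and 8.47%). The median was -0.17, with -0.02 in sheep 30066 and -0.44 in sheep 10081, and 0.04 against 0.

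Of 24 measured growth factors and receptors, 1 was at least 2-fold higher and 4 lower in both sheep (over all genes with a symbol 6.5% and 8.47%). IGFBP4, which binds insulin-like growth factors, had 64.0 units in total DC, 347 in sheep 30066 and 2406 in sheep 10081 (3.45, SE 1.04; its other probe 2.08; 2.75 with median centring). IGF1R, their receptor, stood at -2.83 and -1.69, with its other probes between -0.83 and -0.14, and at -1.63 in the fit when all spots entered the background model. NRP1, a co-receptor of semaphorins and vascular growth factor, had 772 units in total DC, 105 in sheep 30066 and 126 in sheep 10081 (-2.90, SE 0.62). NRG1, a ligand of ERBB receptors, stood at -2.01 and -5.62, and FGF10, an epithelial growth factor, at -2.0 and -2.30.

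Claudins are the strands of tight junctions between epithelial cells, and DC can carry them. CLDN4 had 260 units of Cy3 in total DC, 8575 in sheep 30066 and 5490 in sheep 10081, with a fitted difference of 4.37 (SE 0.60) and 4.55 at its other probe. CLDN3 had 174 units in total DC, 2080 in sheep 30066 and 1886 in sheep 10081 (3.46, SE 0.41). Its differences in the sheep, 3.45 and 3.48, were nearly alike, and its Cy5 signal stayed between 342 and 379 units. CLDN1, also a marker of Langerhans cells, stood at -0.15 and -0.46, GJA1, a gap junction channel, at -0.94 and -1.20, and F11R, a junctional adhesion molecule, at -0.21 and 2.67. Apart from CLDN3 and CLDN4, the genes of the 10 measured on this list were not 2-fold away in both sheep, and the list's median was -0.12, or 0.08 against 0.

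Integrins, which anchor cells to matrix and vessel walls, were mostly lower. ITGA4, which binds vascular adhesion molecules, had 310 units of Cy3 in total DC, 1224 in sheep 30066 and 1293 in sheep 10081 (1.92, SE 0.42; other probe 2.15). ITGB1, its usual beta chain, stood at -1.30 and -1.61 and ITGAV, a chain of vitronectin receptors, at -1.12 and -1.24. The median of the 9 measured integrins was -0.59, with -0.75 in sheep 30066 and -0.06 in sheep 10081.

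Glucose is broken down by glycolysis, on which maturing DC rely. The list of glycolysis and glucose transport had 16 measured genes, enzymes, transporters and HIF1A among them. At least 2-fold in both sheep, 3 were higher and 1 lower (over all genes with a symbol 6.5% and 8.47%). In both sheep 8 lay above total DC and 7 below. PFKL, the liver form of the enzyme that commits glucose to glycolysis, had 731 units of Cy3 in total DC, 8053 in sheep 30066 and 8114 in sheep 10081. The sheep were nearly alike, at 3.37 and 3.36 (SE 0.48). ALDOA, the next enzyme, had 6862 units in total DC, 36105 in sheep 30066 and 57966 in sheep 10081 (3.08, SE 0.61; other probe 3.21). HIF1A, a transcription factor that induces glycolytic genes, stood at 2.33 and 1.44. It had 72.5 units of Cy3 in total DC, over a median local background of 39, 439 in sheep 30066 and 290 in sheep 10081. The enzyme HK1 stood at -0.92 and -1.07. The fructose transporter SLC2A5 lay at -2.27 and -2.52, and the glucose transporter SLC2A1 at -1.74 and -0.38. The list as a whole had a median of 0.22, or -0.09 with median centring. PGD, an enzyme of the neighbouring pentose phosphate pathway, stood at 2.44 and 3.28.

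**Figure D4:**
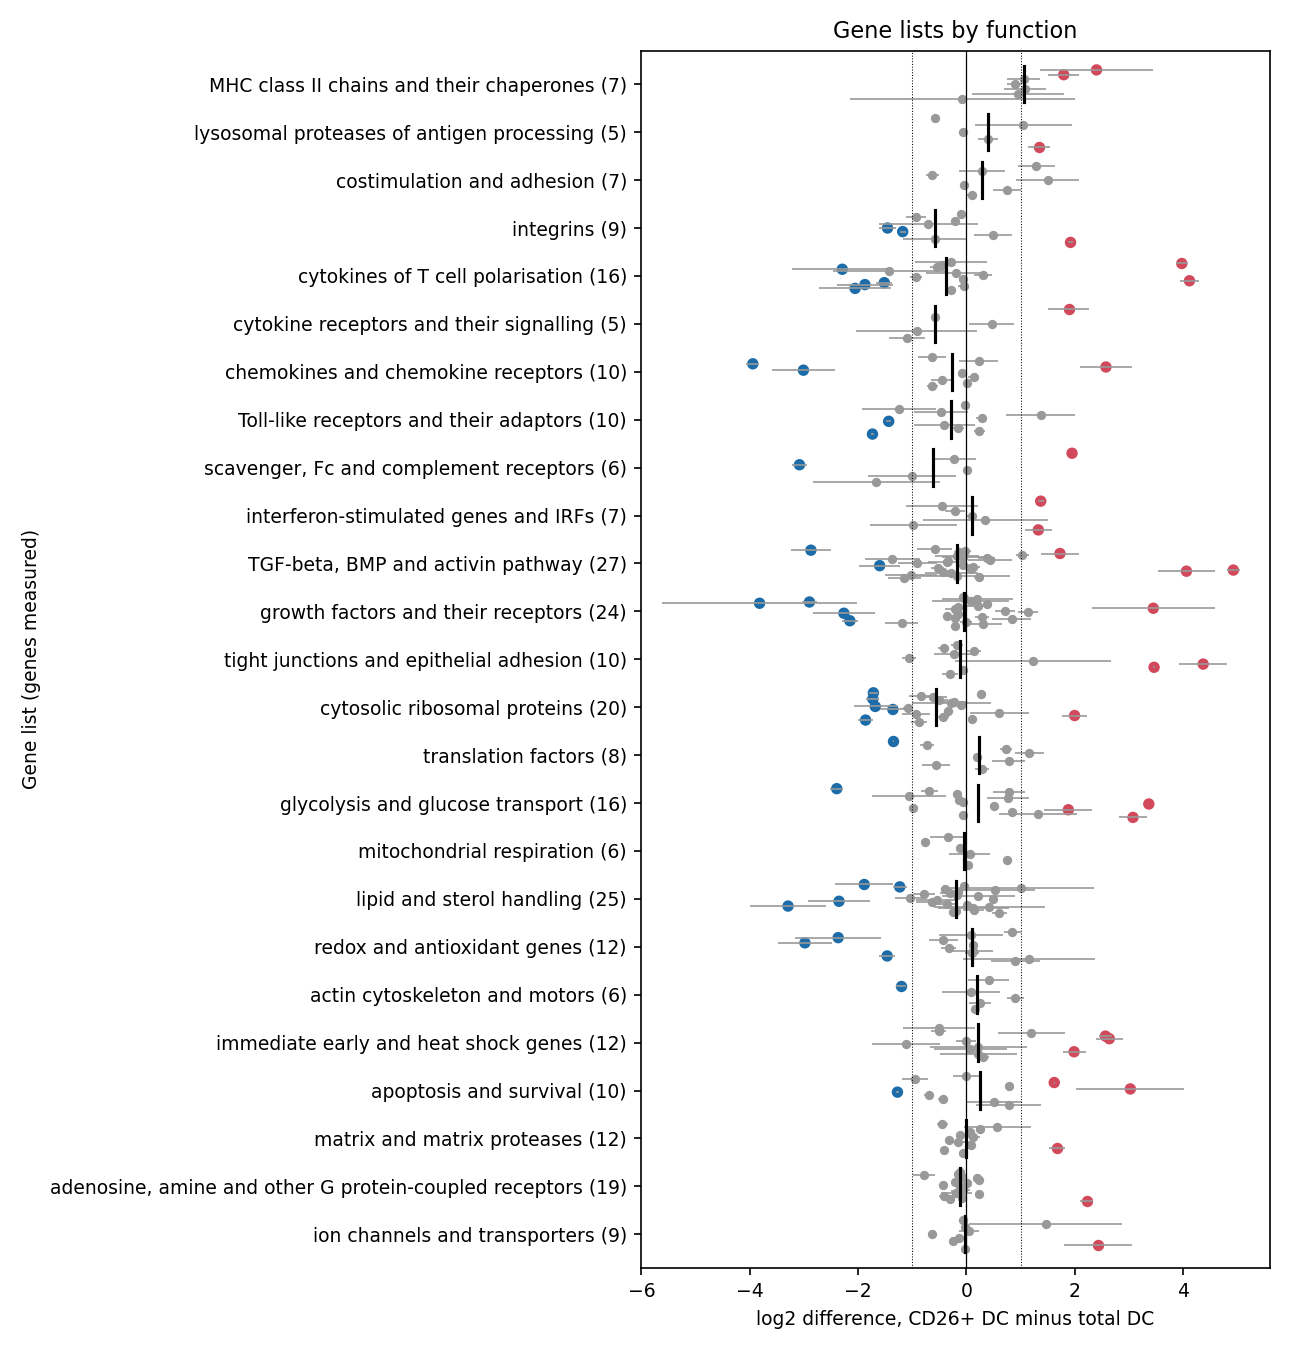
Log2 difference from total DC of each measured gene in the 25 function lists with at least 5 measured genes; points are the mean of the 2 sheep, lines join the sheep, black bars are list medians and dotted lines mark 2-fold. Red and blue points are at least 2-fold higher or lower in both sheep. MHC class II chains have their median to the right, at 1.06, while integrins, cytokine receptors, Fc and complement receptors and cytosolic ribosomal proteins have theirs to the left, between -0.61 and -0.56, and most lists have a median near 0 with a few genes far to 1 side.

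Of 25 measured genes of lipid and sterol handling, 0 were at least 2-fold higher and 4 lower in both sheep (over all genes with a symbol 6.5% and 8.47%). FABP5, a fatty acid carrier, had 40554 units of Cy3 in total DC, 7422 in sheep 30066 and 2262 in sheep 10081 (-3.29, SE 0.85). The self-hybridisation itself stood at -0.92 for FABP5, and its ratio against 0 was -4.22; the scanner's processed signals gave -3.98. NPC2, which moves cholesterol out of lysosomes, stood at -2.92 and -1.79. TM7SF2 and SQLE, both enzymes of sterol synthesis, stood at -2.43 and -1.35, and at -1.36 and -1.10.

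Of 12 measured redox genes, which include makers of oxidants such as CYBB, XDH and the nitric oxide synthases, 3 were at least 2-fold lower and 0 higher in both sheep. Over all genes with a symbol, 8.47% were lower and 6.5% higher by this rule. The 3 redox genes act in antioxidant defence or iron storage. SOD2, which removes superoxide in mitochondria, had 6708 units of Cy3 in total DC, 1097 in sheep 30066 and 632 in sheep 10081 (-2.98, SE 0.63; other probe -2.69). TXN, thioredoxin, stood at -1.58 and -3.16, and FTH1, the heavy chain of the iron store ferritin, at -1.32 and -1.61 (fitted -1.46, or -2.29 against 0). Outside the lists, GSTM3, a glutathione transferase, had 2982 units in total DC, 146 in sheep 30066 and 493 in sheep 10081 (-3.56, SE 0.81). CYBB, the core of the phagocyte oxidase, stood at -0.07 in sheep 30066 and 2.38 in sheep 10081. CYBA stood at 0.45 and 1.35, and XDH at 1.0 and 0.69. Of the redox list, 3 genes lay above total DC in both sheep and 5 below, and its median was 0.098.

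Ribosomal proteins build the translating ribosome, and 15 of the 20 measured genes lay below total DC in both sheep. Of these, 5 were at least 2-fold lower in both (over all genes with a symbol 8.47%). RPL13 had 31907 units of Cy3 in total DC, 9647 in sheep 30066 and 10092 in sheep 10081 (-1.86, SE 0.53). RPS26 stood at -1.85 and -1.61, RPS12 at -1.28 and -2.09, and RPL6 at -1.12 and -1.60. Without subtraction of the self-hybridisation RPS12 stood at -2.92, and the scanner's processed signals gave -2.45. RPL32 lay on the other side at 1.77 and 2.22 (fitted 2.0, or 1.40 with median centring); it was not well above background in total DC. The median of the list was -0.56, with -0.61 in sheep 30066 and -0.65 in sheep 10081, against -0.10 over the genes with a symbol. With the ratio taken against 0 it was -0.77, and RPS12 stood at -1.23 on the self-hybridisation itself. The median of 8 translation factors was 0.24, or -0.13 against 0. TPT1, a translation-associated tumour protein, stood at -1.34 and -1.36 (fitted -1.35, or -2.86 against 0 and -1.96 from the scanner's processed signals).

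Immediate early genes are switched on within minutes of a stimulus. Of the 12 measured genes of that list, 3 were at least 2-fold higher in both sheep (over all genes with a symbol 6.5%). All 3 are of the AP-1 family, but JUN, also of that family, stood at -0.20 in sheep 30066 and 0.18 in sheep 10081. Of the list, 5 genes lay above total DC in both sheep and 2 below. JUNB had 7003 units of Cy3 in total DC, 18248 in sheep 30066 and 31489 in sheep 10081, and the Cy5 signal was lower in sheep 30066 (5619 units) than on the other arrays (16339 and 15490). Its differences were 2.89 and 2.39 (SE 0.61). JUND stood at 2.68 and 2.45 (SE 0.57), and FOS at 2.20 and 1.78. HSPA5, a chaperone of the endoplasmic reticulum, stood at -0.50 and -1.75.

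Of 10 measured genes of cell death and survival, 2 were at least 2-fold higher and 1 lower in both sheep (over all genes with a symbol 6.5% and 8.47%). MAPKAP1, a subunit of mTOR complex 2, stood at 1.63 and 1.61. BCL2L1, which blocks death at mitochondria, stood at -1.25 and -1.30. PCNA, the clamp of DNA replication, stood at -1.21 and -2.85, and TYMS, which makes thymidylate, at 2.10 in sheep 30066 and -1.15 in sheep 10081. Among 19 measured G protein-coupled receptors the adenosine receptor ADORA3 was the 1 gene at least 2-fold away in both sheep, with 72.4 units of Cy3 in total DC and 396 and 399 in sheep 30066 and 10081 (2.22, SE 0.42). The water and glycerol channel AQP3 stood at 1.80 and 3.05. For the motor and cytoskeleton genes, MYLK stood at -1.30 and -1.12 with an SE larger than the fitted difference of -1.21 and -0.19 at its other probe. ACTB, VIM and ACTG1 lay within 1 of total DC in both sheep, although the other ACTB probes ran from -2.25 to 1.23. None of the 6 genes of mitochondrial respiration was 2-fold away in both sheep.

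The other genes among the 15 farthest each way have no list in common. On the higher side stood PI3, an elastase inhibitor of epithelia, at 2.49 and 3.78. On the lower side were CTNNBL1, a protein of the spliceosome, with 14332 units in total DC, 1104 in sheep 30066 and 1954 in sheep 10081 (-3.40, SE 0.64), and KIF5B, a heavy chain of kinesin, at -2.49 and -2.72. LPAR1, a receptor of lysophosphatidic acid, stood at -2.59 and -3.99 (fitted -3.29, or -2.65 to -3.99 under other background settings) and was well above background in 1 of the 2 sheep. NPPC, C-type natriuretic peptide, stood at -3.27 and -2.39.

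Markers of other cell types gave the following picture. Both measured markers of cDC1 were at least 2-fold away from total DC, in opposite directions: IL12B above and TLR3 below. Of 4 measured markers of cDC2 all lay below total DC in both sheep, with a median of -2.16; IL1B and FCER1A were at least 2-fold lower in both, and CLEC6A stood at -0.96 and -0.15. Their summed Cy3 signal, corrected and scaled between arrays, was 12.18 in log2 units in total DC and 9.86 and 9.91 in sheep 30066 and 10081. Defining genes such as XCR1, CLEC9A, SIRPA and IRF4 were not analysed here, and neither list covers its cell type. In such bulk samples fewer cells of a type and less RNA per cell cannot be told apart.

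Of 5 measured markers of monocytes and macrophages, FABP5 and CD14 were at least 2-fold lower in both sheep and CHI3L1 higher. CHI3L1, a secreted chitinase-like protein, had 58.0 units of Cy3 in total DC, where it was not well above background, and 218 and 305 in sheep 30066 and 10081 (1.67, SE 0.48). The summed signal of the list, also scaled between arrays, was 16.59 in log2 units in total DC, 15.80 in sheep 30066 and 14.61 in sheep 10081. LYZ, the antibacterial enzyme lysozyme, stood at 0.76 and -0.42. The part of these markers in the lower values of CXCL8, IL1B and CLEC4E, which monocytes also express, was not tested. The median of 6 genes of DC maturation and migration was 1.12 (0.71 in sheep 30066 and 1.54 in sheep 10081). IL12B and TNF are its 2 genes at least 2-fold higher in both, and IL15 stood at -1.05 and -0.81 with other probes between -2.89 and -2.57.

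Of 10 measured T cell markers, 1 was at least 2-fold higher and 0 lower in both sheep. This was CD5, a surface receptor of T cells. It had 3736 units of Cy3 in total DC, 14429 in sheep 30066 and 13278 in sheep 10081 (1.76, SE 0.65; other probe 1.53). CD3D, CD3E and CD3G were high in sheep 10081, whereas CD247 was low there. In the order sheep 30066 and sheep 10081, CD3D stood at 0.20 and 3.29, CD3E at 0.47 and 1.90 and CD3G at 0.25 and 1.57. CD247 stood at -0.27 and -1.42, GATA3 at -1.41 and 1.14, LEF1 at 0.58 and 0.30, CD28 at 0.02 and 0.20 (other probe 1.18), CD40LG at -0.05 and -0.04 and CD4 at -0.20 and -0.11. The summed signal of the 10 genes, scaled between arrays, was 13.70 in log2 units in total DC, 14.96 in sheep 30066 and 14.87 in sheep 10081. The brightest probes weigh most in such a sum, and CD5 had the highest mean intensity of the list. The median difference of the 10 genes was 0.11 in sheep 30066 and 0.72 in sheep 10081. CD3D was not well above background in total DC. The part of T cells in the values of other genes was not tested. Of 33 T cell receptor probes 0 were at least 2-fold away in both sheep, and their median was 0.19, with -0.07 in sheep 30066 and 0.44 in sheep 10081, or -0.20 with median centring. All 6 probes of WC1, a scavenger receptor of gamma-delta T cells, lay below total DC in both sheep, with a median of -0.46. GNLY, a cytolytic protein of NK and T cells, had 5579 units in total DC, 1063 in sheep 30066 and 1634 in sheep 10081, and TBX21 stood at -0.03 and -0.10.

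B cell markers differed between the sheep. IGHG1, the constant chain of IgG, stood at -0.18 in sheep 30066 and 3.26 in sheep 10081, and IGHM at -0.73 and 0.94. XBP1 stood at -0.65 and -0.37 and CR2 at 0.02 and 0.01. The median of 81 immunoglobulin probes was -0.03 (-0.15 in sheep 30066 and 0.04 in sheep 10081). Both sheep placed 3 of them at least 2-fold above total DC and 1 below (over all probes 9.9% and 8.81%). The measured markers of neutrophils (BAC5, LTF and CATHL3), red cells and platelets (HBB and EPOR), mast cells (KIT and TPSB2), skin epithelium and stroma (COL1A1, COL3A1, DCN and TYR) and the plasmacytoid DC marker TLR9 all lay within 1 of total DC in both sheep. Several of these probes were dim, and a ratio near 0 at a dim probe does not show equal levels. COL1A1 was not well above background in total DC or in CD26+ cells of either sheep. LTF and KIT were not in CD26+ cells of either sheep, and BAC5 and DCN were not in total DC. NRP1, the other plasmacytoid DC marker, is given above with the growth factor receptors.

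**Figure D5:**
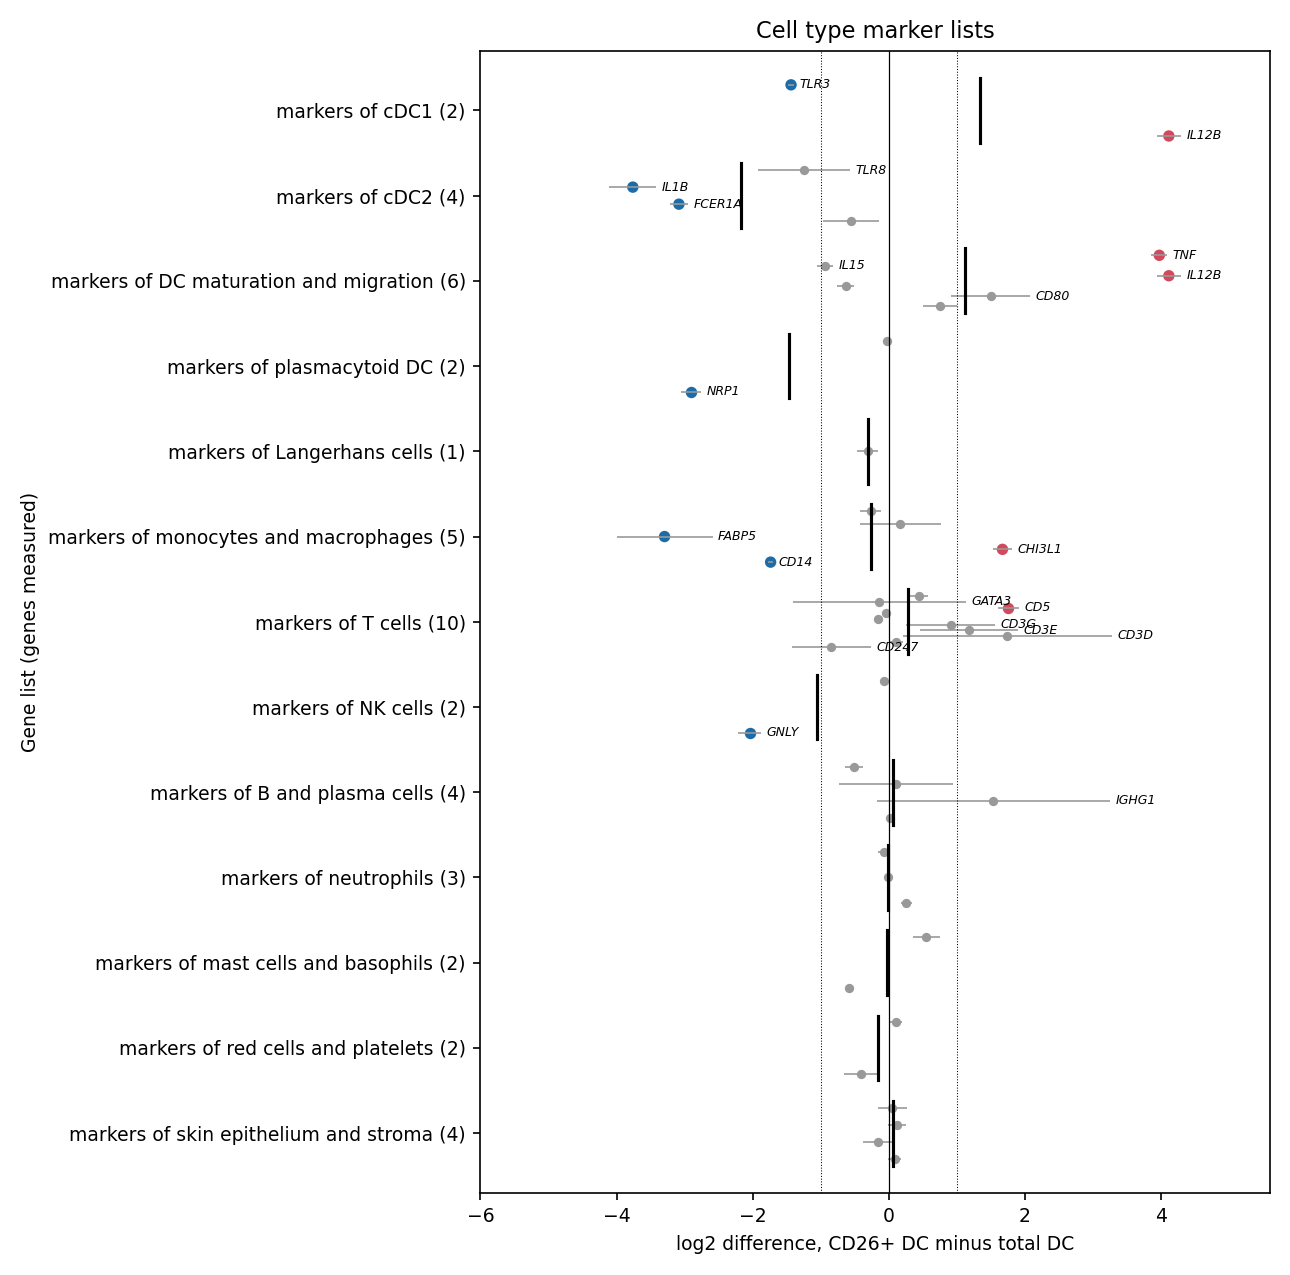
Log2 difference from total DC of each measured cell type marker; points are the mean of the 2 sheep, lines join the sheep, black bars are list medians and dotted lines mark 2-fold, with red and blue for genes at least 2-fold higher or lower in both sheep. The 4 cDC2 markers lie to the left of 0, and CD3D, CD3E and CD3G spread widely between the sheep. Markers of neutrophils, red cells and skin lie near 0, several of them at dim probes. Genes at least 2-fold away in either sheep carry their symbol.

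Beyond genes with a symbol, 2249 of the 2435 probes at least 2-fold away in both sheep had no symbol here. The probes that were higher had a median GC content of 45.0%, those that were lower 43.3%, against 45.0% over all probes. By mean intensity, the lowest quartile of probes held 3.84% higher and 0.43% lower probes, and the highest quartile 11.6% and 12.6%. The part of the background offset and of the filter on dim probes in these shares was not tested. The Cy5 signal relative to the self-hybridisation, centred on the median of all probes, had a median of 0.09 in each sheep on the log2 scale for the higher probes, and of -0.09 in sheep 30066 and -0.02 in sheep 10081 for the lower probes.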

How the data were processed

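The members, the gene lists and the fit of the background model were chosen with earlier results of these data known. Each array's scanner file gives the intensity of every spot and of its surroundings in linear units as deposited, without normalisation. The program was Feature Extraction 9.5.3.1, according to their headers. The deposited log10 ratio of processed signals served as an alternative, and the deposited log2 value table equals it, turned to Cy3 over Cy5, within 0.01 at all 15744 spots of every array. Mean signals were corrected with normexp (offset 50), with spots of local background over 5 times the array median kept out of the model and the results, as were 536 control spots and outlier-flagged spots. Arrays were normalised by loess (limma 3.58.1, R 4.3.3), with no scaling between arrays for the ratios, and probe spots averaged. The fold is on the log2 scale of these corrected signals. The summed Cy3 signals of marker lists were in addition scaled between arrays by the Aquantile method of limma. Each is a sum of linear levels, so the brightest probes weigh most.

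A probe entered the test when its Cy3 signal was well above background on 2 or more of the 5 arrays. There were 13252 such probes, of which 13193 gave a p; 1756 were left out as dim. Means of 3 groups were fitted over all 5 arrays with limma (lmFit, eBayes), with Benjamini-Hochberg adjustment, and the SE rests on this shared spread. The 2 arrays are of different sheep. The arrays of a sheep are paired by its number in the labels (correlation of deviations 0.33). A symbol came from the files, from descriptions read by hand, or from RefSeq (ARS-UI_Ramb_v3.0, names only) for 1486 probes of 833 genes; 13522 probes have none. A gene is read by its tested probe of highest mean intensity. Named are the 15 genes farthest each way by the smaller value of the sheep, up to 6 members of each list by size, and every measured cell type marker; some genes that this names are not reported here. For genes not well above background in a group, Cy3 levels and ratios gave unlike folds, so no bound is given. The number of arrays limits precision.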

Additional observations from a re-analysis of the deposited data

How the results depend on the processing

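limma called 0 probes at an adjusted p under 0.05 in every fit that subtracted the self-hybridisation, and 650 higher and 531 lower without the subtraction. The planned random replicate block was not run to a value, because 2 residual degrees of freedom gave no correlation. With the sheep as a fixed replicate block, chosen after seeing the data, the calls stayed at 0 higher and 0 lower (smallest adjusted p = 0.215), and 2324 instead of 1493 probes had an unadjusted p under 0.05. Leaving out a CD26+ array, the size rule rests on 1 sheep and counts 1959 to 2820 probes higher and 1978 to 2260 lower. Of the 46 genes higher and 60 lower, 36 and 59 passed the size rule with median centring and 44 and 48 when all spots entered the background model. All 106 kept their direction under the alternatives run except PRNP, at 0.15 as the median of its probes.

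List medians count as moved past 0.34, the SD of a list median between the sheep pooled over 32 lists, a limit set after seeing the data. With the main settings the medians were 0.28 for costimulation, -0.59 for cytokine receptors, -0.28 for Toll-like receptors, 0.098 for redox genes and 0.26 for apoptosis. They were 0.20 for actin genes, 0.40 for lysosomal proteases, -0.27 for monocyte markers, 0.28 for T cell markers and 0.22 for immediate early genes. The redox median was below 0 with either sheep alone. Leaving out 1 sheep at a time gave 0.76 to 1.47 for MHC class II, 0.87 to 1.93 for class I heavy chains, 0.017 to 0.71 for costimulation, -0.75 to -0.061 for integrins, -0.63 to 0.053 for cytokine receptors, -0.62 to 0.034 for Toll-like receptors, -1.21 to -0.089 for Fc and complement receptors, -0.36 to -0.067 for redox genes, -0.12 to 0.49 for apoptosis, 0.71 to 1.54 for DC maturation and 0.11 to 0.72 for T cell markers. Median centring gave 0.65 for MHC class II, 0.97 for class I heavy chains, -0.93 for cytokine receptors, -0.28 for redox genes, -0.17 for actin genes, 0.73 for DC maturation, -0.066 for T cell markers and -0.20 for T cell receptor chains. Without subtraction of the self-hybridisation the lysosomal proteases stood at 0.90, translation factors at -0.13, actin genes at -0.18, monocyte markers at 0.10 and class I heavy chains at 1.04, the last at 1.03 from the scanner's processed signals. Requiring all 3 arrays well above background gave -0.22 for Fc and complement receptors, 0.78 for glycolysis, -1.0 for monocyte markers and -0.88 for WC1, over fewer genes. The median over all probes of a gene gave 0.68 for immediate early genes. Where no fewer genes or arrays entered, the cause was not tested.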
